A study of Arabidopsis thaliana with 12 samples.

Results

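Stomata, the pores through which leaves take up carbon dioxide and lose water, are made by a short epidermal cell lineage, and 10 genes that direct this lineage in Arabidopsis thaliana are described here. They were chosen by locus for their known role and not by their values, though earlier results of these data were known. The bHLH transcription factors are SPCH, MUTE, FAMA, ICE1 and SCRM2. The secreted peptides are EPF1, EPF2 and EPFL9 (STOMAGEN), and the cell-surface receptors are TMM and ER. All 10 were listed among the 27655 genes of both the RNA-seq and the Ribo-seq table, 27445 of which are nuclear. Ribo-seq counts footprints, the pieces of mRNA that a ribosome shields from nuclease, and RNA-seq, made here after removal of rRNA, measures how much RNA was present.

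The material was wild-type Col-0 seedlings, 7 days old, grown in shaken liquid medium. All of them received the mock treatment of a larger experiment, the solvent DMSO at 0.1% of the medium, given 3 h after lights on, and were harvested 20 or 60 min later with 3 biological replicates per time. Each assay comprised 6 libraries, and the sources used here do not say which library belongs to which time. The 6 libraries of an assay were deposited as a single value per gene, so no comparison between times or between replicates could be made, and no test was run. The intervals given below are exact Poisson intervals of the counts at 95% and cover counting error only. RNA-seq summed to 51390094 counts and Ribo-seq to 299584069, and the median nuclear gene with a ratio had 499 RNA-seq counts. The Ribo-seq descriptions name root while their titles and source name seedlings. The shoot gene RBCS1A had 7469.75 RNA-seq TPM and 9676.30 Ribo-seq TPM, LHCB1.1 had 2388.51 and 3075.82, and LHCB1.3 had 6379.52 and 5959.98. Of their 28-nucleotide stretches of coding sequence, 14.1%, 54.6% and 53.2% occur elsewhere, so their single values are uncertain. Each of 5 root genes was also detected in both assays, with CASP1 at 44.80 RNA-seq TPM and 73.75 Ribo-seq TPM.

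In the lineage, SPCH starts the asymmetric divisions that create meristemoids, MUTE ends them and turns a meristemoid into a guard mother cell, and FAMA drives the last step to paired guard cells. Each pairs with ICE1 (also called SCREAM) or its paralog SCRM2. EPF1 and EPF2 are secreted by lineage cells and limit stomatal number, EPFL9 comes from the inner leaf tissue and raises it by competing for the same receptors, and TMM, a receptor-like protein without a kinase domain, works with the receptor kinase ER and its relatives ERL1 and ERL2, which act through a MAP kinase cascade on SPCH.

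All 10 genes were read by RNA-seq and by ribosomes. They spanned 2.17 to 25.35 RNA-seq TPM and 2.63 to 24.78 Ribo-seq TPM, where TPM is a level corrected for coding length and scaled to the same total in each assay. Each had at least 10 counts in both assays, as 74.6% of nuclear genes had in RNA-seq and 81.2% in Ribo-seq. Their summed level was 120.27 RNA-seq TPM and 121.04 Ribo-seq TPM. EPFL9, ICE1, SCRM2, ER and TMM, in that order, took the first places in both assays. With EPF2 and SPCH they lay above the median of all nuclear genes (4.77 RNA-seq TPM), and FAMA, EPF1 and MUTE lay below it. The counting intervals of SPCH, FAMA and EPF1 held that median. In a whole seedling a low level may come from few cells of the lineage or from little RNA in each, which cannot be told apart.

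**Figure D1:**
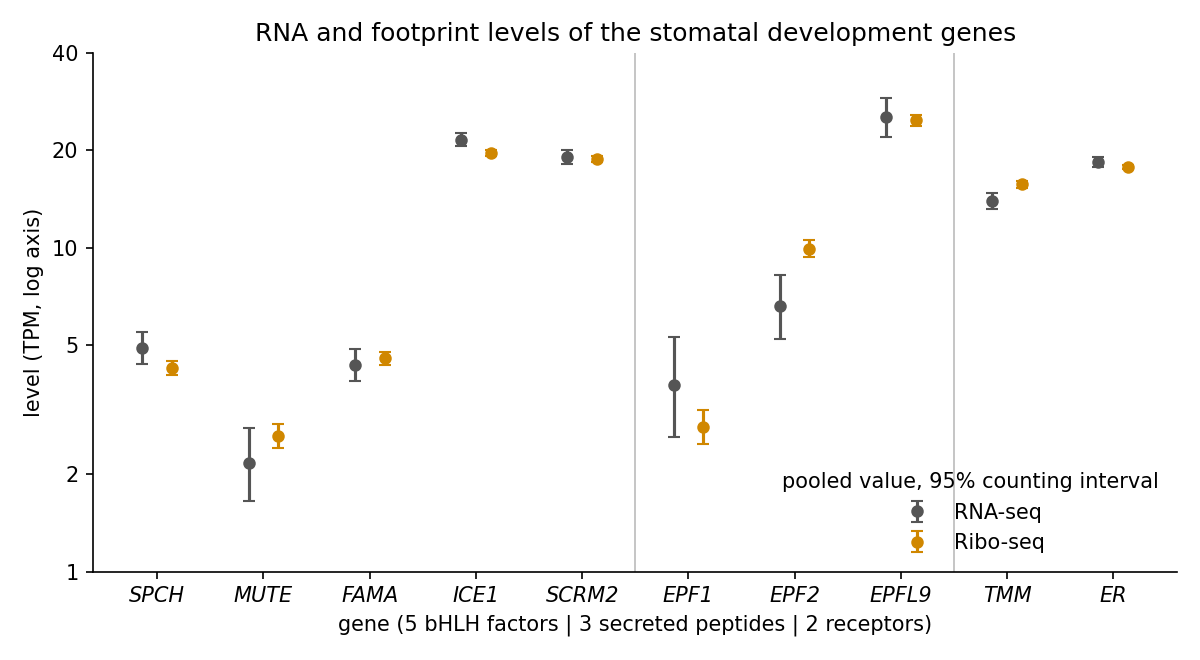
Levels of the 10 genes in RNA-seq and in Ribo-seq, in TPM on a log axis, ordered by role. Points are the pooled value of each assay and bars are exact Poisson intervals at 95%, which cover counting error only. EPFL9 is highest at 25.35 RNA-seq TPM, a place in RNA-seq that depends on the length correction, and MUTE lowest at 2.17, and the pair of points of each gene lies close together.

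The 3 stage-specific bHLH factors were low and the partners they share were several-fold higher. SPCH (AT5G53210, chromosome 5 from 21586219 to 21589255, minus strand, TAIR10.1, the build of all positions here) had 294 RNA-seq counts and 1536 footprints, which is 4.92 RNA-seq TPM (4.37 to 5.52) and 4.25 Ribo-seq TPM (4.04 to 4.47). FAMA (AT3G24140, chromosome 3 from 8715118 to 8718211, minus strand) had 306 counts and 1851 footprints, at 4.35 RNA-seq TPM (3.88 to 4.87) and 4.56 Ribo-seq TPM (4.35 to 4.77). The levels of SPCH and FAMA thus overlapped within counting error in both assays. MUTE (AT3G06120, chromosome 3 from 1846442 to 1848259, plus strand) was the lowest of the 10 with 61 counts and 518 footprints, at 2.17 RNA-seq TPM (1.66 to 2.79) and 2.63 Ribo-seq TPM (2.41 to 2.87). SPCH exceeded MUTE 2.27-fold in RNA-seq TPM (1.57 to 3.32) and 1.62-fold in Ribo-seq TPM (1.41 to 1.86), so the middle step of the lineage had the least RNA and the fewest footprints of the 3 per coding length.

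ICE1 (AT3G26744, chromosome 3 from 9832667 to 9835279, minus strand), which is also known for its part in the response to cold, had 1846 counts and 9583 footprints, at 21.58 RNA-seq TPM (20.6 to 22.6) and 19.66 Ribo-seq TPM (19.3 to 20.1). SCRM2 (AT1G12860, chromosome 1 from 4384304 to 4386651, plus strand) had 1451 counts and 8359 footprints, at 19.09 RNA-seq TPM (18.1 to 20.1) and 18.88 Ribo-seq TPM (18.5 to 19.3). ICE1 was 1.13-fold higher than SCRM2 in RNA-seq TPM (1.03 to 1.25), and in Ribo-seq TPM the fold was 1.04 with an interval that held 1 (0.999 to 1.09). The paralogs share 74.5% of 424 aligned amino acids, but only 17 of 1458 stretches of 28 nucleotides of the ICE1 coding sequence occur elsewhere, all of them in SCRM2.

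The summed TPM of the partners exceeded that of the stage factors by a similar factor in RNA and in footprints. These are levels of whole seedlings, so the proportions within cells of the lineage were not measured. SPCH, MUTE and FAMA together came to 11.44 TPM in each assay, against 40.67 RNA-seq TPM and 38.54 Ribo-seq TPM for ICE1 and SCRM2, which is 3.56-fold and 3.37-fold. The partners held 78.0% of the RNA-seq TPM and 77.1% of the Ribo-seq TPM of the 5 factors. ICE1 stood 4.39-fold above SPCH in RNA-seq TPM (3.74 to 5.16) and 4.63-fold in Ribo-seq TPM (4.31 to 4.96), and 9.94-fold above MUTE in RNA-seq TPM (7.39 to 13.6) and 7.48-fold in Ribo-seq TPM (6.72 to 8.33). Among 131 other genes annotated as bHLH proteins, 13 had a higher RNA-seq TPM than ICE1, 56 exceeded SPCH and 75 exceeded MUTE.

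The peptides ranged from EPFL9, first of the 10 genes in TPM, to EPF1, the next to lowest. EPFL9 (AT4G12970, chromosome 4 from 7585869 to 7587099, minus strand) had 212 counts and 2366 footprints over a coding sequence of 309 nucleotides, which gave 25.35 RNA-seq TPM (22.1 to 29.0) and 24.78 Ribo-seq TPM (23.8 to 25.8). Its interval overlapped that of ICE1 in RNA-seq and lay above it in Ribo-seq. EPF2 (AT1G34245, chromosome 1 from 12472868 to 12473974, plus strand), which restrains entry into the lineage, had 78 counts and 1132 footprints, at 6.60 RNA-seq TPM (5.22 to 8.24) and 9.95 Ribo-seq TPM (9.38 to 10.5). EPF1 (AT2G20875, chromosome 2 from 8982863 to 8983814, minus strand), which enforces the spacing of stomata, had only 33 counts and 274 footprints, at 3.78 RNA-seq TPM (2.60 to 5.31) and 2.81 Ribo-seq TPM (2.49 to 3.16).

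The peptide that raises stomatal number was thus higher than both that limit it. EPFL9 stood 3.84-fold above EPF2 in RNA-seq TPM (2.68 to 5.56) and 2.49-fold in Ribo-seq TPM (2.26 to 2.75), and 6.71-fold above EPF1 in RNA-seq TPM (4.15 to 11.1) and 8.82-fold in Ribo-seq TPM (7.52 to 10.4). It held 70.9% of the RNA-seq TPM and 66.0% of the Ribo-seq TPM of the 3 peptides. EPF2 and EPF1 differed 3.54-fold in Ribo-seq TPM (2.97 to 4.24), whereas in RNA-seq TPM the fold was 1.75 with an interval that held 1 (0.98 to 3.17). The 3 peptides made up 81.6% of the RNA-seq TPM and 86.2% of the Ribo-seq TPM of all 11 genes of the EPF family, and the other 8 summed to 8.04 RNA-seq TPM and 6.03 Ribo-seq TPM.

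Levels of such short genes depend on the length correction. The tables divide RNA-seq counts by an effective length of 126 nucleotides for EPFL9, 132 for EPF1 and 178 for EPF2, and footprints by 282, 288 and 336 nucleotides, because RNA-seq fragments are longer than footprints. Raw footprints per RNA-seq count were 11.2 for EPFL9, 8.30 for EPF1 and 14.5 for EPF2, against 5.83 over all genes and 5.19 to 8.49 for the 7 other members. With whole coding lengths, an alternative chosen after seeing the data, EPFL9 came to 15.1 RNA-seq TPM and fell from place 1 to place 5 of the 10, behind ICE1 at 27.5, while in Ribo-seq it kept place 1 at 23.7 TPM. EPFL9 was still above EPF2 (3.19-fold in RNA-seq, 2.46-fold in Ribo-seq) and EPF1 (6.55-fold and 8.80-fold).

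The receptors were among the more abundant members. ER (AT2G26330, chromosome 2 from 11208080 to 11214662, minus strand) had 3360 counts and 17516 footprints, the most of the 10, at 18.42 RNA-seq TPM (17.8 to 19.1) and 17.81 Ribo-seq TPM (17.5 to 18.1). TMM (AT1G80080, chromosome 1 from 30127819 to 30129649, minus strand), whose coding sequence lies in 1 exon, had 1215 counts and 7787 footprints, at 14.01 RNA-seq TPM (13.2 to 14.8) and 15.71 Ribo-seq TPM (15.4 to 16.1). ER exceeded TMM 1.31-fold in RNA-seq TPM (1.20 to 1.44) and 1.13-fold in Ribo-seq TPM (1.09 to 1.18). Of the 3 kinases of the ERECTA family, ER held 72.0% of the RNA-seq TPM and 76.0% of the Ribo-seq TPM, with ERL2 at 4.81 RNA-seq TPM and 3.28 Ribo-seq TPM and ERL1 at 2.35 and 2.33. Among 182 other genes annotated as LRR receptor kinases, 26 had a higher RNA-seq TPM than ER and 34 a higher one than TMM.

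The footprint level relative to the RNA level was expressed as the log2 ratio of Ribo-seq TPM plus 0.1 to RNA-seq TPM plus 0.1, for nuclear genes with more than 0.1 RNA-seq TPM. All 10 genes passed this filter, as did 78.1% of nuclear genes (21422 genes, with a median ratio of 0.12 and quartiles of -0.42 and 0.57). The ratio lay between -0.42 and 0.58 in the 10 genes, with a median of -0.02. None was under -1, where 10.1% of nuclear genes lay, and none was over 1, where 8.44% lay. The intervals of 7 members held 0, and those of ICE1, EPF2 and TMM did not. By point value 3 members (MUTE, EPF2 and TMM) lay above the nuclear median. The intervals of 5 members, MUTE and TMM among them, held that median. The interval of EPF2 lay above it, and those of SPCH, ICE1, SCRM2 and ER lay below it.

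**Figure D2:**
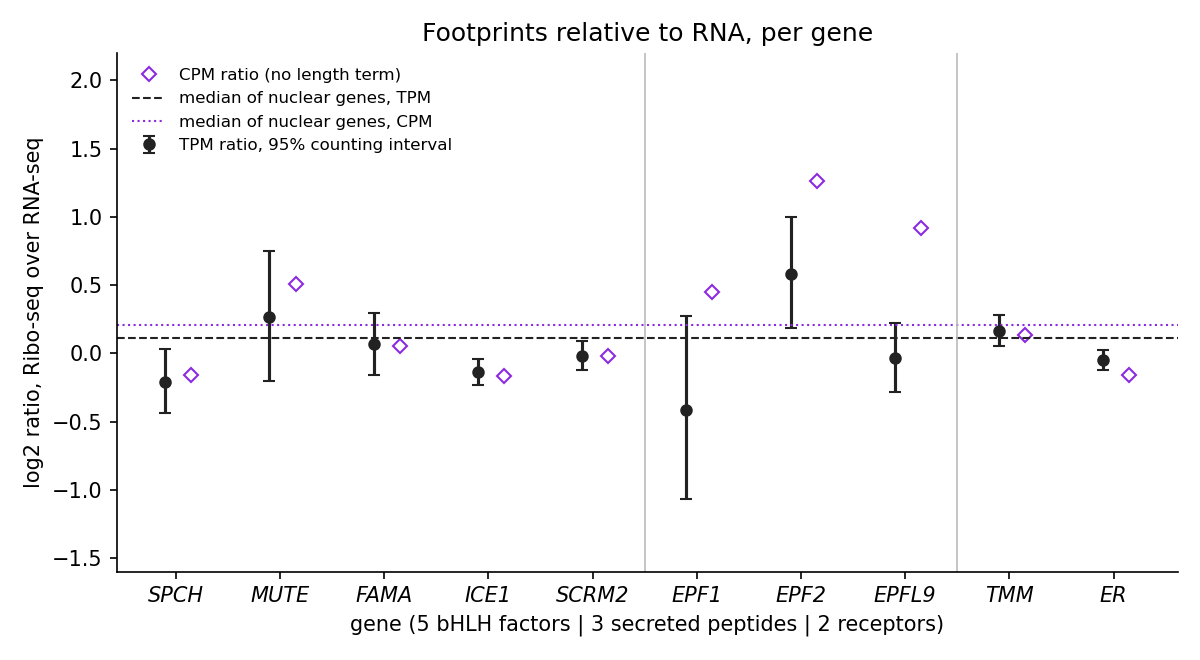
Log2 ratio of Ribo-seq TPM to RNA-seq TPM for each of the 10 genes, as filled points with bars for the combined exact Poisson bounds of both counts, and the same ratio of CPM as open diamonds. Horizontal lines mark the median of nuclear genes, 0.12 in TPM and 0.21 in CPM. The TPM ratios run from -0.42 for EPF1 to 0.58 for EPF2, and the bars are widest for the genes with the fewest RNA-seq counts, EPF1 and MUTE.

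By role, the medians lay close to 0: -0.02 for the bHLH factors, -0.03 for the peptides and 0.06 for the receptors. Among the bHLH factors the ratio was -0.21 for SPCH (-0.44 to 0.03), 0.27 for MUTE (-0.20 to 0.75), 0.07 for FAMA (-0.16 to 0.29), -0.13 for ICE1 (-0.23 to -0.04) and -0.02 for SCRM2 (-0.12 to 0.09). The difference of MUTE from SPCH, 0.47, had bounds that held 0 (-0.23 to 1.19). The 110 other bHLH genes with a ratio had a median of -0.23. Of them, 13 lay under -1 (11.8%, near the 10.1% of nuclear genes).

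EPF2 had the highest ratio of the 10 genes, 0.58 (0.19 to 1.00), and EPF1, its closest functional relative, the lowest, -0.42 (-1.06 to 0.27), with EPFL9 between them at -0.03 (-0.28 to 0.23). The difference between EPF2 and EPF1 was 1.00, but with 33 and 78 RNA-seq counts its bounds held 0 (-0.09 to 2.07). In CPM, which has no length term, the ratios were 1.26 for EPF2, 0.92 for EPFL9 and 0.45 for EPF1, so the direction for EPFL9 and EPF1 depends on the length correction while EPF2 stays highest. For the receptors the ratio was 0.16 in TMM (0.05 to 0.28) and -0.05 in ER (-0.12 to 0.02), a difference of 0.21 whose bounds did not hold 0 (0.03 to 0.40). With whole coding lengths, or with TPM computed over nuclear genes alone, the ratio of TMM turned to -0.14 and -0.28. ER stayed lower under both, at -0.44 and -0.49. Relative to the nuclear median of each setting, TMM lay at -0.09 and 0.035, against 0.05 in the main setting. The kinase ERL1 had a ratio of -0.01 and did not differ from ER beyond counting error (difference 0.04, -0.22 to 0.30), while ERL2 was lower than ER by -0.49 on the log2 scale (-0.70 to -0.28).

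Against all nuclear genes the 10 formed a band along the line of equal TPM. Between 39.5% (MUTE) and 83.4% (EPFL9) of nuclear genes had a lower RNA-seq TPM than the member, and between 25.4% (EPF1) and 75.7% (EPF2) of the genes with a ratio had a lower ratio. The ratio varies with coding length over all genes, with a median of 0.20 at 300 to 400 nucleotides and 0.30 at 600 to 1000, but -0.19 at 2000 to 3000, and all 10 members lay within the quartiles of their own length class.

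**Figure D3:**
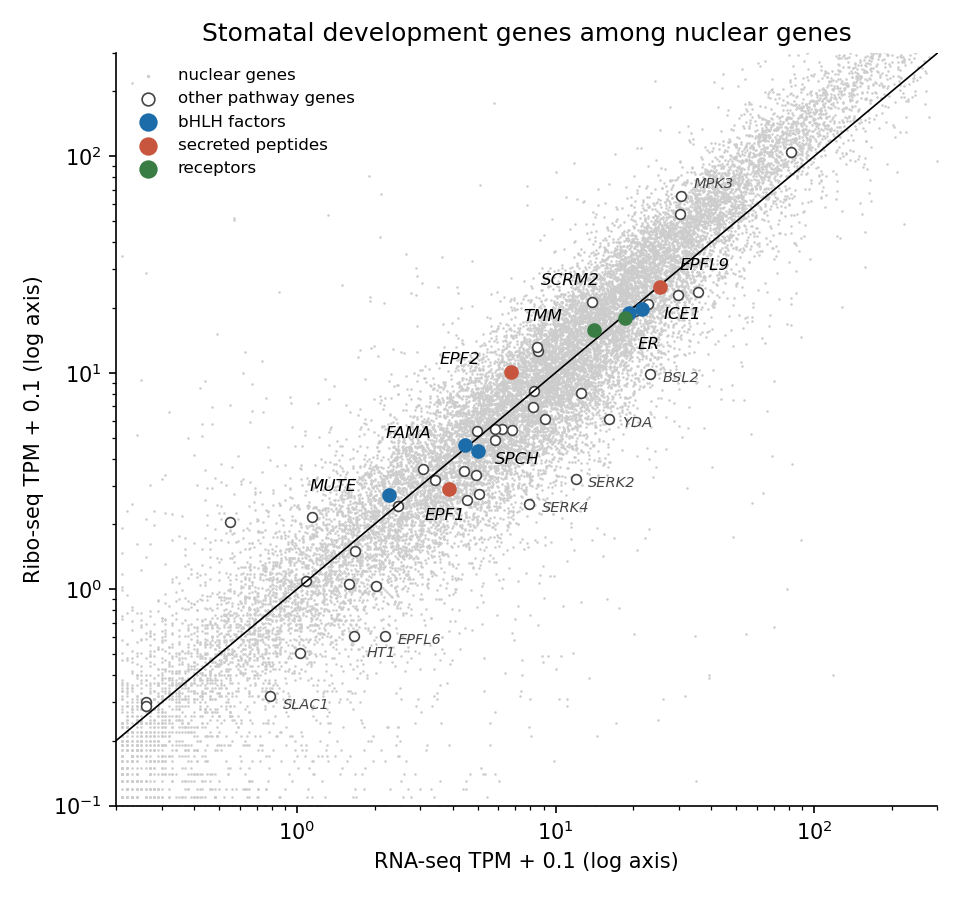
Ribo-seq TPM against RNA-seq TPM, each plus 0.1 and on log axes, for nuclear genes (grey), the 10 genes (filled, by role) and the other genes of the pathway (open circles). The line marks equal TPM. The filled points follow the line, while SERK2 (ratio -1.89), SERK4 (-1.67), YDA (-1.40) and BSL2 (-1.23) lie below it.

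Of 45 other genes listed for the pathway, 42 had a ratio, with a median of -0.20. Of these, 8 (19.0%, against 10.1% of nuclear genes) lay under -1 and 2 (4.76%, against 8.44%) over 1. Those under -1 were SERK2, SERK4, YDA, BSL2, EPFL6, EPFL4, HT1 and SLAC1. With a pseudocount of 1, EPFL4 (-0.45, from 9 counts), HT1 (-0.76) and SLAC1 (-0.47) were no longer under -1, and the others stayed under it. The co-receptor SERK2 had 1343 counts but 1970 footprints and a ratio of -1.89 (-2.03 to -1.75), and the kinase YDA, which heads the MAP kinase cascade, had a ratio of -1.40 (-1.49 to -1.31). SERK4, at -1.67 (-1.84 to -1.50), shares 37.6% of its 28-nucleotide stretches with other genes, mostly with 1 neighbouring locus, so its counts are uncertain. None of the 6 other receptors and co-receptors exceeded the nuclear median, with SERK1 at -0.32 and BAK1 at -0.59.

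Below the receptors, the lower kinases of the cascade had higher ratios than its first kinase. The median ratio of the 7 MAP kinase cascade genes was 0.55, against -1.40 for YDA at the top of the cascade. MPK3 had 1.09 (1.01 to 1.18), MPK6 0.84, MKK5 0.63 and MKK4 0.55. MKK7 had 0.16, from only 8 RNA-seq counts, and MKK9 had -0.17. MPK3, a terminal kinase of the cascade, had 30.49 RNA-seq TPM and 65.23 Ribo-seq TPM. Among the genes of polarity and division, BASL, which marks the cell side away from the division, had 133 counts and a ratio of -0.11 (-0.44 to 0.24), POLAR had -0.33, the kinase BIN2 0.36 and the phosphatase BSL2 -1.23 (-1.30 to -1.16). The protease SDD1 had a ratio of 0.12, and of the later transcription factors SCAP1 had 0.92 and FLP -0.57.

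Of the other 8 EPF family genes 7 had a ratio, with a median of -0.59. EPFL6, known from the stem, had 41 counts and 82 footprints and a ratio of -1.85 (-2.54 to -1.13), and EPFL4 a ratio of -1.01 from 9 counts (-2.24 to 0.32). The locus AT4G37810 had 6 counts and 236 footprints, a ratio of 1.89 (0.74 to 3.12), and AT1G80133 had 0 RNA-seq counts, which allows up to 3, and 7 footprints.

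The genes differ in what precedes the coding sequence. In the first annotated transcript of each gene, the 5′ leader ran from 86 nucleotides in TMM to 767 in ER, and 7 of the 10 leaders held at least 1 ATG upstream of the start codon, as did 58.4% of nuclear leaders. Upstream ATGs can start upstream ORFs, whose translation usually lowers translation of the main coding sequence. The tables count coding sequences only, so footprints on the leaders themselves were not analysed here. MUTE, EPF2 and TMM had no upstream ATG, FAMA had 2, SPCH, SCRM2 and EPF1 had 3 each, EPFL9 4, ICE1 7 and ER 13. The sequence around each start codon is shown because the bases at -3 and +4, counted from the A of the ATG, affect how readily a ribosome starts there. Sequences are from RefSeq, TAIR10.1, 5′ to 3′ on the coding strand, with the ATG in capitals and the position of its A given:
SPCH (chromosome 5, minus strand, 21588941): tctctaatcacgATGcag
MUTE (chromosome 3, plus strand, 1846531): caattaagtatcATGtct
FAMA (chromosome 3, minus strand, 8717772): ccacgaatagcaATGgat
ICE1 (chromosome 3, minus strand, 9834790): tcaactttggcgATGggt
SCRM2 (chromosome 1, plus strand, 4384758): tactagtttgacATGaac
EPF1 (chromosome 2, minus strand, 8983579): cgataatatatcATGaag
EPF2 (chromosome 1, plus strand, 12472990): aagattataaacATGacg
EPFL9 (chromosome 4, minus strand, 7586798): aagaagtagagaATGaag
TMM (chromosome 1, minus strand, 30129563): aacaactaagaaATGgca
ER (chromosome 2, minus strand, 11213895): tgtgtgtgagaaATGgct

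All 10 start codons had A or G at -3, as 74.5% of nuclear start codons do. The start codons of FAMA, ICE1, TMM and ER also had G at +4. These 4 of 10 are near the background, since 56.4% of nuclear start codons had G at +4 and 40.2% had both bases. The leaders held 35 upstream ATGs, 13 of them in ER, and no share over all nuclear upstream ATGs was computed for comparison. Of these 35, 15 had A or G at -3 and 5 had both bases. These 5, each followed by a stop codon in its own leader, lay in ICE1 and ER:
ICE1, 422 nucleotides before the start codon, 3 codons before a stop (chromosome 3, minus strand, 9835212): ttaagcagaaaaATGgag
ER, 656 nucleotides before, 34 codons (chromosome 2, minus strand, 11214551): agtacccataagATGgat
ER, 642 nucleotides before, 4 codons (chromosome 2, minus strand, 11214537): ggatttattgatATGggt
ER, 412 nucleotides before, 51 codons (chromosome 2, minus strand, 11214307): agataaaagatgATGggg
ER, 212 nucleotides before, 3 codons (chromosome 2, minus strand, 11214107): gaatttgatgtgATGgaa

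**Figure D4:**
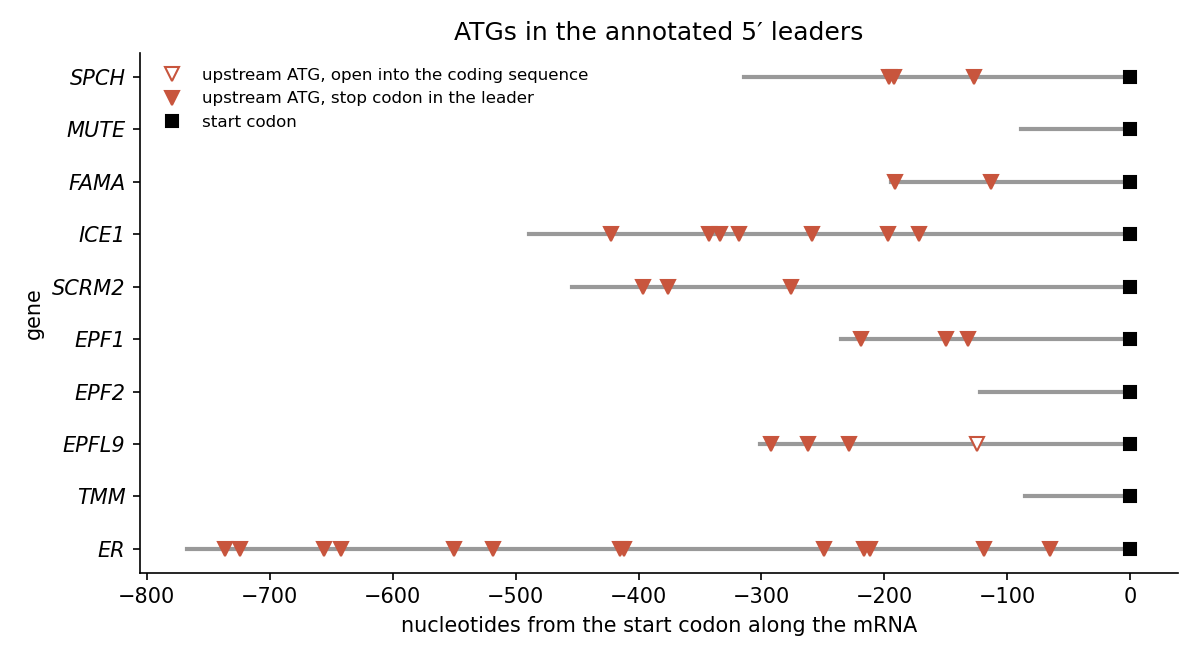
Annotated 5′ leaders of the 10 genes, drawn to scale in nucleotides before the start codon, with each upstream ATG as a triangle (filled where a stop codon follows in the leader, open where the frame runs into the coding sequence). ER carries 13 upstream ATGs over 767 nucleotides, and MUTE, EPF2 and TMM carry none.

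Genes with upstream ATGs had a lower median ratio, among the 10 (-0.05 against 0.27) and over all nuclear genes. MUTE, EPF2 and TMM, without one, had ratios of 0.16 to 0.58, and the 7 with at least 1 had -0.42 to 0.07. The ranges did not overlap with a pseudocount of 1 either, but they overlapped in CPM (0.14 to 1.26 against -0.17 to 0.92), and with whole coding lengths (-0.14 to 1.02 against -0.44 to 0.65). These are ranges of point values, and the gap between them in TPM lay within counting error. The intervals of TMM (0.05 to 0.28) and FAMA (-0.16 to 0.29), the genes on either side of it, overlapped. Over nuclear genes the median ratio was 0.29 in 7970 genes without an upstream ATG and 0.01 in 12229 genes with one. The share under -1 was 4.45% and 11.7%. It reached 31.3% in the 492 genes with at least 10 upstream ATGs, whose median ratio was -0.40.

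ER combined many upstream ATGs with a TPM ratio near 0. Only 212 of 20199 genes with a leader and a ratio had more upstream ATGs. Its ratio of -0.05 was above that of 67.1% of the 492 genes with at least 10. It lay within the quartiles of that class (-1.25 to 0.13), and in CPM it was above 60.2% of them. The ratio of ER was -0.44 with whole coding lengths and -0.49 with TPM over nuclear genes only, where the nuclear medians were -0.06 and -0.32. By its first annotated transcript, ICE1 lay near the middle of the class of 6 to 9 upstream ATGs, with 56.8% of genes below it. The leader of ICE1 is uncertain, since it has 5 annotated transcripts that the deposited values do not separate. Only the first, with a leader of 489 nucleotides, has 7 upstream ATGs. Each of the others, with leaders of 132 to 235 nucleotides, has 1 and would not fall in that class. The other 9 genes have the same number of upstream ATGs in every annotated transcript.

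**Figure D5:**
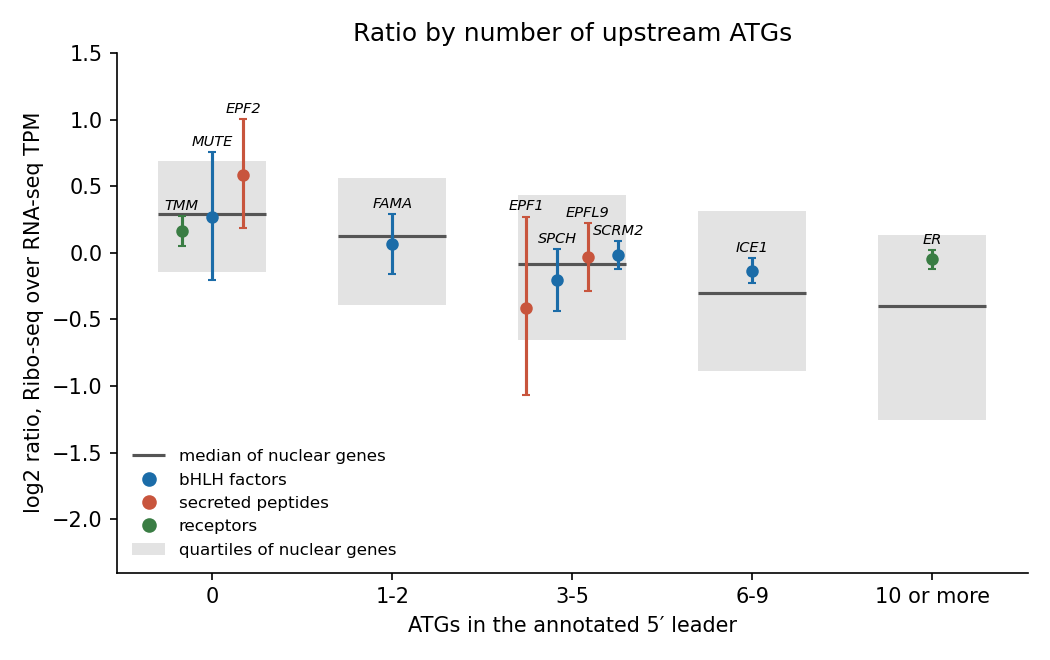
Log2 ratio of Ribo-seq TPM to RNA-seq TPM against the number of upstream ATGs in the annotated leader, for the 10 genes and, as medians and quartiles, for nuclear genes in classes of 0, 1 to 2, 3 to 5, 6 to 9 and at least 10. The class median falls from 0.29 to -0.40, and ER, with 13 upstream ATGs, lies at -0.05.

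Few reads of the 10 genes could belong elsewhere. No member overlaps another annotated gene, and 8 of the 10 share no 28-nucleotide stretch with the rest of the genome. The stage factors are more diverged than the partners, with 53.9% identity between the proteins of SPCH and MUTE, 46.0% between MUTE and FAMA and 43.8% between SPCH and FAMA. EPF1 and EPF2 share 38.9%, and ER shares 63.5% with ERL1 and 63.2% with ERL2.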

How the data were processed

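Per the labels and methods, lysates of mock-treated seedlings gave 6 RNA-seq and 6 Ribo-seq libraries. The labels list Bowtie2 2.3.4.1, STAR and RSEM 1.3.1 without their roles. For each assay the authors deposited a single RSEM table of raw expected counts, and of TPM and FPKM computed over effective coding length. FPKM was not used. The sources used here do not say how the 6 libraries were combined. Coding lengths equalled those of TAIR10.1 in 16729 of 16729 genes with 1 transcript. Organelle genes took 30.2% of the RNA-seq TPM and 4.84% of the Ribo-seq TPM, and ratios were taken over nuclear genes.

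Leaders, ATGs and 28-nucleotide stretches were read from TAIR10.1 in the first annotated transcript. Stretches were searched on both strands of the genome and in all spliced coding sequences. Protein identity came from global alignment (BLOSUM62, gap penalties 11 and 1, free end gaps). Bounds of a ratio combine the lower bound of 1 assay with the upper bound of the other. The members and lists were chosen with earlier results of these data known. The named genes are the 10 members, any gene of the pathway lists and, for each member, the pathway gene nearest to it in the plane of both log2 levels. Of 63 list genes, 57 carry their name in the reference. The computation was checked on simulated data. Python 3.11.15, numpy 2.4.6, pandas 2.3.3, scipy 1.17.1, Biopython 1.88 and matplotlib 3.10.9 were used.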

Additional observations from a re-analysis of the deposited data

How the results depend on the processing

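No paired analysis was possible because the tables hold 1 pooled value per gene and assay, and for the same reason no replicate could be left out. No member had a ratio under -1 under any alternative. With a pseudocount of 1, or with no filter on RNA-seq TPM, every member's ratio stayed within its counting interval. The medians by role have no such interval. With a pseudocount of 1 they were -0.02 (bHLH factors), -0.03 (peptides) and 0.05 (receptors), and without the filter they were unchanged. In CPM the median of the peptides was 0.92, and with whole coding lengths 0.65, and in each of these 1 member (EPF2) was over 1. TPM over nuclear genes only lowered the nuclear median from 0.12 to -0.32, and the medians by role to -0.46 (bHLH factors), -0.48 (peptides) and -0.39 (receptors), which relative to that median are -0.15, -0.16 and -0.07. Whole coding lengths put the nuclear median at -0.06, the bHLH factors at -0.30 and the receptors at -0.29. TMM changed sign under both, to -0.28 and -0.14, which relative to the nuclear medians are 0.035 and -0.09. The members above the nuclear median were MUTE, EPF2 and TMM, but MUTE, EPF1, EPF2 and EPFL9 in CPM and with whole coding lengths, and FAMA was added without the filter. The RNA-seq counts of EPF1 (33), MUTE (61) and EPF2 (78) limit the precision of their ratios.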

Other observations

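Genes of mature guard cells, the end product of the lineage, lay on both sides of the median RNA-seq TPM of nuclear genes. The 7 genes listed lay between 0.69 RNA-seq TPM (SLAC1, the anion channel of stomatal closure) and 8.17 (KAT2, a potassium channel), with a median ratio of -0.16. KAT2 and MYB60 (5.73) were above the median of all nuclear genes, 4.77 RNA-seq TPM, and the other 5 below it. Among those 5, the counting interval of KAT1 (4.07 to 4.82) held that median. The kinase HT1 had a ratio of -1.44 and SLAC1 -1.30, from 102 and 68 RNA-seq counts, while MYB60 had -0.08 and BLUS1 0.23. The ratio of SLAC1 was -0.47 with a pseudocount of 1.

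Other pathway genes also had long leaders with many upstream ATGs, and their ratios were not tested against that of ER. HDG2 and KAT1 each had 14 upstream ATGs, in leaders of 947 and 845 nucleotides, and ratios of -0.25 and -0.81. MYB88 had 9 upstream ATGs and a ratio of -0.24. A further 2 listed genes had footprints with little RNA: AT1G20150, annotated as a subtilisin-like serine endopeptidase family protein, had 0 RNA-seq counts and 38 footprints, and CYCD7;1, a cyclin of the guard mother cell, had 4 counts and 39 footprints. The pathway gene nearest to each member in the plane of both log2 levels, measured over 2 values, was RBR1 for ICE1 (distance 0.10), BSL1 for SCRM2 (0.08) and ER (0.17), ERL1 for MUTE (0.20), BASL for EPF1 (0.22), ATML1 for EPFL9 (0.26), SDD1 for FAMA (0.27), HDG2 for SPCH (0.28), KAT2 for EPF2 (0.42) and MKK5 for TMM (0.43).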
